A study of Mus musculus with 6 samples.

Results

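The transcripts of hemoglobin and of red cell formation were followed in the cerebellum of newborn mice whose mothers had received different amounts of folic acid (FA). The set was made of 8 genes, named by symbol in the array annotation: the adult globins Hba-a1 and Hbb-b1, the embryonic globins Hba-x, Hbb-bh1 and Hbb-y, and the erythroid genes Alas2, Slc4a1 and Ahsp. They were read by 9 of the 55681 probes that are not controls, 1 probe a gene except for 2 probes of Hbb-y, of which the brighter was used. C57BL/6J dams received a custom amino acid-based diet with 2 mg or 20 mg FA per kg from the week before mating and throughout gestation, and the 2 mg diet was the control. Total RNA of pups at postnatal day 1 was hybridized to single-colour arrays, 1 array at 2 mg and 2 arrays at 20 mg for each sex, and every array held a pool of 3 pups from different dams. The extraction protocol describes one of the 20 mg pools of each sex as coming from a different batch, without saying which replicate it is, and since each sex has a single pool at 2 mg, pools can be compared with each other only at 20 mg. No genotype other than the C57BL/6 background is given, pups were killed by cervical dislocation, and no perfusion is described.

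Hemoglobin is a tetramer of alpha-type and beta-type globin chains, each of which carries a heme group. In the mouse embryo, primitive red cells from the yolk sac use the embryonic chains (zeta from Hba-x, epsilon-y from Hbb-y and beta-h1 from Hbb-bh1), and definitive red cells from the fetal liver and bone marrow use the adult chains. Reticulocytes, the youngest red cells in the circulation, still hold globin RNA, so blood left in a tissue adds these transcripts to its RNA. In a pooled tissue sample fewer red cells and less RNA per cell cannot be told apart.

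To place the adult and the embryonic genes side by side, the 150 bases before the transcription start are shown for the genes whose promoter is in the RefSeq table of GRCm38.p6, on the strand of the gene, 5′ to 3′. The Hbb-b1 probe carries an accession that this table now gives to Hbb-bt, and a probe named Beta-s on the array carries that of Hbb-bs. Capitals mark, on either strand, the letters CACCC that Krüppel-like factors bind, the CCAAT box, the letters GATAA that GATA factors bind and the core TATAA of a TATA box. Overlapping matches run together in the capitals.
Hba-a1 (chr11:32283522-32283671, plus strand): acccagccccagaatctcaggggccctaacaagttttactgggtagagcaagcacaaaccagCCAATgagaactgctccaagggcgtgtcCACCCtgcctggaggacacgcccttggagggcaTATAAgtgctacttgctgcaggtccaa
Hbb-bt (chr7:103813924-103814073, minus strand): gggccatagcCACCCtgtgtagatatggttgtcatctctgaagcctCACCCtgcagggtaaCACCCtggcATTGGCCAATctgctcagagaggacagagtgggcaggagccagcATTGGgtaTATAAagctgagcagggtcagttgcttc
Hbb-bs (chr7:103827929-103828078, minus strand): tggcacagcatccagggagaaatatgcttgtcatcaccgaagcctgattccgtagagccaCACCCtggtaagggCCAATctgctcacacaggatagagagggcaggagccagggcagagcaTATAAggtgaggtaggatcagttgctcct
Hba-x (chr11:32276450-32276599, plus strand): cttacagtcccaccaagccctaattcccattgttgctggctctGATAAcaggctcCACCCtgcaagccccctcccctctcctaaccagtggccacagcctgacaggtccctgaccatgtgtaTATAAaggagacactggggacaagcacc
Hbb-y (chr7:103853208-103853357, minus strand): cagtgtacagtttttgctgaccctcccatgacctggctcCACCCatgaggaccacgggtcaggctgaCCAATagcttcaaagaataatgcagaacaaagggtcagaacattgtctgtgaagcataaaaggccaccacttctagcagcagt
Alas2 (chrX:150547267-150547416, plus strand): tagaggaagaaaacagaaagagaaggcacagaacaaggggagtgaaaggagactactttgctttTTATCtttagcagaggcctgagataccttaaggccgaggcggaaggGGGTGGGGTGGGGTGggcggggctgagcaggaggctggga
Of 32851 promoters in the table, the 250 bases before the start held CACCC in 52%, CCAAT in 33.8%, GATAA in 22.6% and TATAA in 22.8%. Each of the 6 promoters held GATAA 1 time in these 250 bases, and each held CACCC at least 1 time, 3 times in Hbb-bt and in Alas2. CCAAT was found in both adult beta-globin promoters, in Hba-a1 and in Hbb-y, and not in Hba-x or Alas2. TATAA was found in each but Hbb-y, in Alas2 only outside the 150 bases shown. The GATAA matches of Hba-x and Alas2 lie within the 150 bases shown, and the others lie outside them. Within the upstream window, Hba-a1 and Hba-a2 share an identical run of 247 bases, against a longest shared run of 14 bases for Hbb-bt and Hbb-bs. A match of letters describes the window and is not a binding site. Hbb-bh1, Slc4a1 and Ahsp have no entry and are named only.

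The arrays differed in brightness, and this limited which of these transcripts could be read. From 51.1% to 71.9% of the probes were well above background on 5 arrays, and 23.2% on the array of female 20 mg replicate 2, whose mean rank correlation with the other arrays was 0.658 against 0.861 to 0.889 for the rest. Slide 1 held both 2 mg arrays with female 20 mg replicate 1. Slide 2 held the dim female array together with male 20 mg replicate 1 and was scanned on a day of its own, and slide 3 held the remaining male array. Signals were put on a common scale by quantile normalization and are given as log2 values with a floor of 10 on the linear scale. On this scale, probes well above background reached down to between 3.36 and 5.37 on 5 arrays and to 8.82 on female 20 mg replicate 2, so on that array a value under 8.82 is not a measured level. No member was saturated on any array. A field of the labels gives the tissue as whole brain, while the titles give cerebellum. Of 12 cerebellar marker genes, 10 or 11 were well above background on the 5 brighter arrays and 6 on female 20 mg replicate 2. Of 12 forebrain markers, between 8 and 12 were well above background on the 5 brighter arrays and 2 on female 20 mg replicate 2, so transcripts of both lists were read on the brighter arrays. The source of the forebrain signal was not tested.

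The adult alpha-globin Hba-a1 (probe at chr11:32183955-32184014, mm9) was well above background on all 6 arrays. Its log2 value was 15.82 on the female 2 mg array, 15.81 and 13.28 on the female 20 mg arrays, 15.70 on the male 2 mg array, and 17.19 and 15.38 on the male 20 mg arrays, replicate 1 first. The 3 arrays of slide 1 lay within 0.13 of each other, female 20 mg replicate 2 was lowest and male 20 mg replicate 1 highest, and the doses overlapped. The processed signals before normalization were 125888, 201862, 721, 134656, 107679 and 21918 in the same order. The mean at 20 mg was 14.55 ± 1.79 (SD, n = 2) in females and 16.29 ± 1.28 (SD, n = 2) in males, so the pools at the same dose lay further apart than the doses. The dose difference (20 mg minus 2 mg, log2) was -1.28 in females, with a standard error (SE) of 1.06, and 0.59 in males, with an SE of 1.06. Without female 20 mg replicate 2 the female difference was -0.01, and without male 20 mg replicate 1 the male difference was -0.32.

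The adult beta-globin Hbb-b1 (probe at chr7:110961105-110961164, mm9) was likewise well above background on all 6 arrays and was far less variable. Its log2 value was 14.87 in females at 2 mg, 14.24 and 14.18 in females at 20 mg, 14.57 in males at 2 mg, and 14.90 and 14.21 in males at 20 mg. All 6 values lay within 0.72 log2 units, where the median probe tested, often not measured on the dim array, ranged over 2.32. The ferritin genes Ftl1 and Fth1, also bright, ranged over 0.56 and 0.76. On the 3 arrays of slide 1, Hbb-b1 ranged over 0.63, against a median of 0.47 for all probes tested. Of the arrays at 20 mg, 3 lay below both 2 mg arrays and 1, male replicate 1, lay above them. The dose difference was -0.66 in females (SE 0.90) and -0.02 in males (SE 0.90), on means of 14.21 ± 0.04 (SD, n = 2) and 14.55 ± 0.49 (SD, n = 2) at 20 mg.

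**Figure D1:**
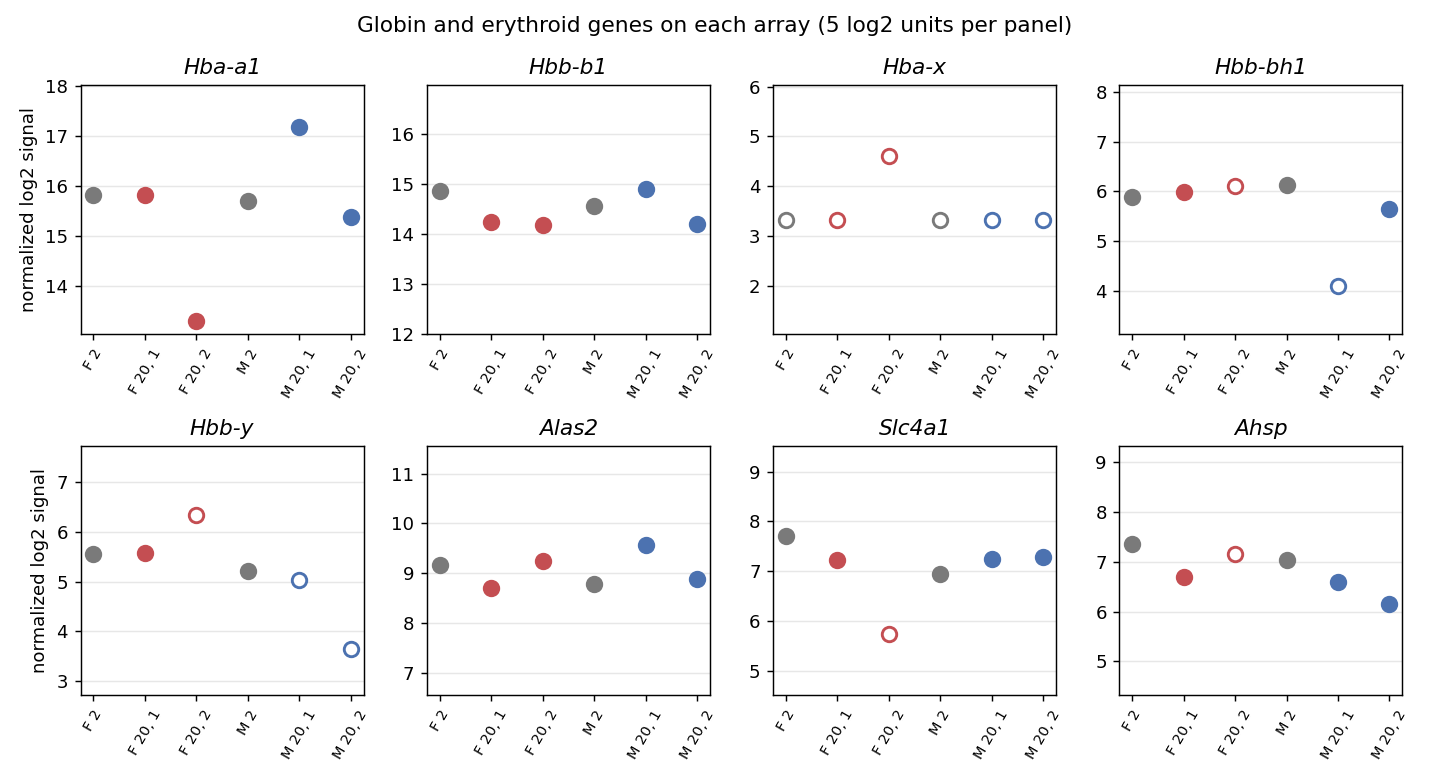
Normalized log2 signal of the 8 genes on each array (F, female and M, male, then the maternal FA dose in mg/kg diet and the replicate). Filled points are well above background and open points are not, and every panel spans the same number of log2 units. Hbb-b1 stays within 0.72 log2 units, while Hba-a1 ranges from 13.28 to 17.19.

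Other adult globin probes on the array did not share one pattern. Hba-a2, which encodes the same alpha chain as Hba-a1, ranged over 1.21 log2 units, with its lowest value, 16.22, on female 20 mg replicate 2 and its highest, 17.43, on the female 2 mg array and on male 20 mg replicate 1. The probe of Hbb-b2, the minor adult beta chain of strains with the d haplotype, read 13.07, 13.01 and 10.35 on the female arrays (2 mg, then 20 mg replicates 1 and 2) and 12.78, 11.52 and 12.67 on the male arrays. Beta-s, an adult beta chain of the s haplotype that C57BL/6 mice carry, was 10.76, 8.73 and 12.19 on the female arrays and 10.58, 8.48 and 11.73 on the male arrays. Female 20 mg replicate 2 was therefore the lowest array for Hba-a1, Hba-a2, Hbb-b1 and Hbb-b2 and the highest for Beta-s. In both sexes the 2 replicates at 20 mg lay on opposite sides of the 2 mg array for Beta-s. This was not particular to globins. The replicates of Ermap, a red cell membrane gene, did so too, at 8.24 and 11.24 against 9.73 in females and 8.47 and 12.75 against 9.45 in males. The array with the lowest Beta-s value, male 20 mg replicate 1, had the highest Hba-a1 and Hbb-b1 values. These globin genes are close copies, so a probe may bind RNA of more than 1 of them, and their values cannot be fully assigned to single genes. Since C57BL/6 mice carry the s haplotype, the values of the Hbb-b2 probe are not read as levels of Hbb-b2 RNA.

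**Figure D2:**
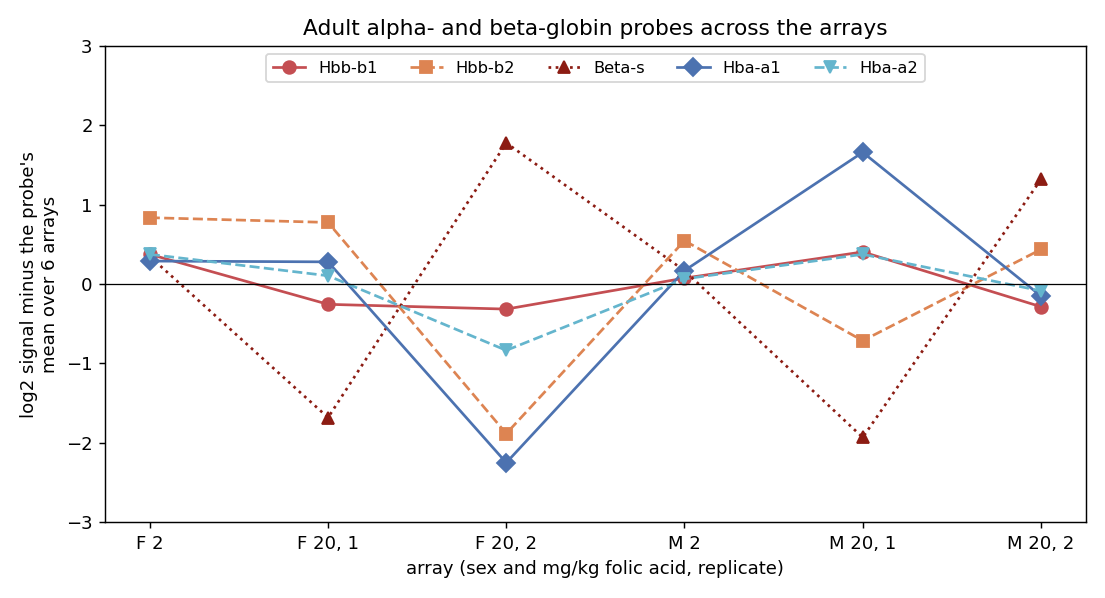
Log2 signal of 5 adult globin probes on each array minus the mean of that probe over the 6 arrays, so that probes are compared by their changes and not by their levels (F, female and M, male, then mg/kg FA and replicate). Beta-s peaks on female 20 mg replicate 2, at 12.19 log2 units before centring, where Hba-a1, Hba-a2, Hbb-b1 and Hbb-b2 are at their lowest.

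No embryonic globin was well above background on all 6 arrays. Hba-x (zeta-globin, probe at chr11:32177668-32177727, mm9) was not well above background on any of the 6 arrays and stood at the floor, 3.32 log2 units, on 5 of them. The value of 4.61 on female 20 mg replicate 2 lay below the lowest measured level of that array. Hba-x did not enter the test, and no fold is given.

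Hbb-bh1 (beta-h1-globin, probe at chr7:110990209-110990268, mm9) was well above background on 4 arrays. Its log2 value was 5.88 on the female 2 mg array, 5.98 on female 20 mg replicate 1, 6.12 on the male 2 mg array and 5.64 on male 20 mg replicate 2. It was not well above background on female 20 mg replicate 2 (6.11) or on male 20 mg replicate 1 (4.1). The 4 arrays that measured it lay close together, and the lowest value was on the male array with the highest Hba-a1. The dose difference was -1.25 in males (SE 1.94), from -2.02 on replicate 1 and -0.49 on replicate 2, and 0.16 in females (SE 1.94).

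Hbb-y (epsilon-y-globin, probe at chr7:111000268-111000327, mm9) was well above background on the 3 arrays of slide 1 alone, at 5.56 in females at 2 mg, 5.58 on female 20 mg replicate 1 and 5.22 in males at 2 mg. The other arrays stood at 6.34 for female 20 mg replicate 2, 5.03 for male 20 mg replicate 1 and 3.64 for male 20 mg replicate 2, none of them measured levels. Neither male array at 20 mg measured it, and no fold is given. The second Hbb-y probe was also well above background on 3 arrays, and its direction was opposite in each sex, with a dose difference of -0.64 in females and 0.09 in males against 0.40 and -0.88 for the brighter probe.

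To set the adult against the embryonic globins, for each array the mean log2 value of the embryonic probes was subtracted from that of the adult probes, and only the change of this quantity between arrays is read, since levels of different probes are not comparable. Relative to the 2 mg array of the same sex it was -0.37 and -2.38 on the female 20 mg arrays and 1.65 and 0.35 on the male 20 mg arrays. The sexes lay on opposite sides, and the extreme arrays were the ones with the lowest and the highest Hba-a1. The mean over both sexes was -0.19, with an SD of 1.20 between pools at 20 mg, and 0.37 without female 20 mg replicate 2. Hba-x was measured on no array, and of Hbb-bh1 and Hbb-y only Hbb-bh1 on male 20 mg replicate 2 was measured on slides 2 and 3, so these differences rest in part on values that are not measured levels, and nothing is read from them about the dose. On slide 1, where both Hbb genes were measured, the female arrays at 2 mg and 20 mg differed by -0.37.

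Alas2, Slc4a1 and Ahsp act in developing red cells outside the globin loci. Alas2, the erythroid enzyme that starts heme synthesis (probe at chrX:147004993-147005052, mm9), was well above background on all 6 arrays. Its log2 values were 9.17 in females at 2 mg, 8.71 and 9.25 in females at 20 mg, 8.79 in males at 2 mg, and 9.57 and 8.88 in males at 20 mg. The doses overlapped within a range of 0.85, and 2 arrays at 20 mg lay above both 2 mg arrays while 1 lay below them. The dose difference was 0.12 over both sexes (SE 1.06) and -0.47 on slide 1 alone, where a single female array stands for the 20 mg dose.

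Slc4a1 (band 3, the anion exchanger of the red cell membrane, probe at chr11:102210256-102210315, mm9) was well above background on 5 arrays. Its log2 values there were 7.70 in females at 2 mg, 7.23 on female 20 mg replicate 1, 6.94 in males at 2 mg, and 7.24 and 7.29 in males at 20 mg. Female 20 mg replicate 2 stood at 5.73, which is not a measured level. The females at 2 mg and at 20 mg replicate 1 differed by 0.48 and the 2 mg arrays of the sexes by 0.76. The dose difference was -1.22 in females (SE 2.13), or -0.51 without replicate 2, and 0.33 in males (SE 2.13).

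Ahsp, the chaperone that holds free alpha-globin in a stable form, was also well above background on 5 arrays and has no position in the array annotation. Its log2 values were 7.36 in females at 2 mg, 6.70 on female 20 mg replicate 1, 7.04 in males at 2 mg, and 6.59 and 6.15 in males at 20 mg, and female 20 mg replicate 2, with 7.16, did not measure it. The 3 arrays at 20 mg that measured Ahsp lay below both 2 mg arrays. The share of all probes that do so on these arrays was not computed, so the order is not read as a trait of Ahsp. The dose difference was -0.55 over both sexes (SE 1.52), -0.43 in females (SE 2.14) and -0.67 in males (SE 2.14), and -0.71 on slide 1 alone. On the remaining array it lay between the 2 mg arrays, so the doses overlap when all 6 values are used.

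**Figure D3:**
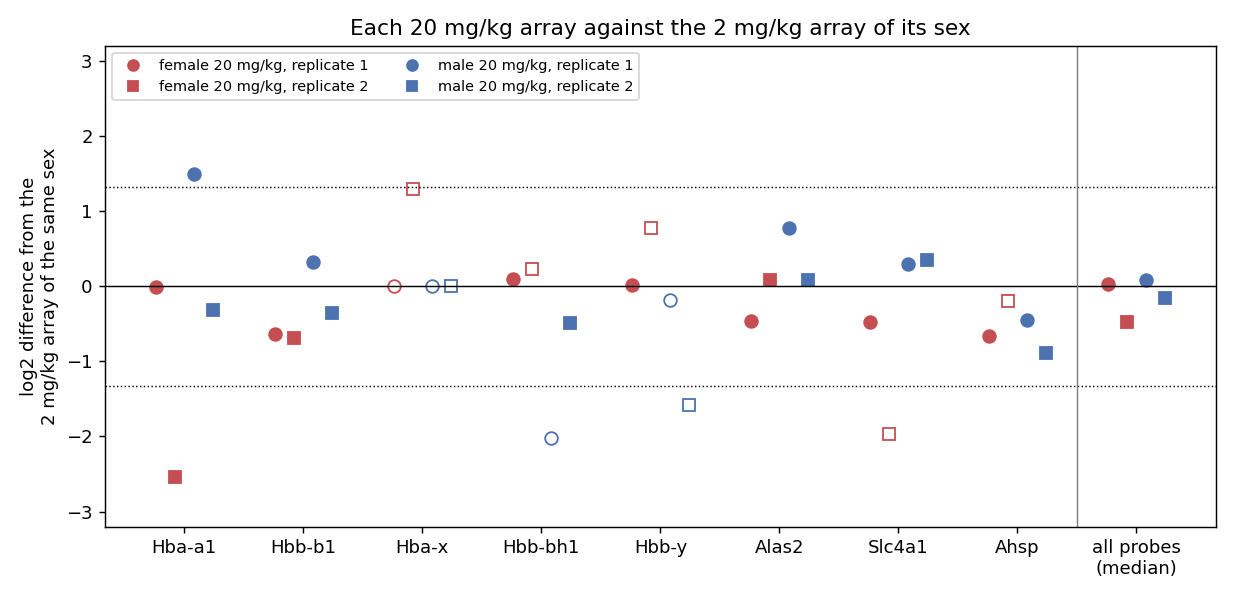
Log2 difference of each 20 mg/kg array from the 2 mg/kg array of its sex for the 8 genes, with the median over all probes tested at the right. Open points are not well above background, and dotted lines mark 2.5-fold. The points of single arrays fall on both sides of 0 for most genes, from -2.54 to 1.50 for Hba-a1.

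Across the array, the dose was tested with limma on 37197 probes that were well above background on at least 2 arrays, with Benjamini-Hochberg adjustment. Of the 7 members tested, 0 were called over both sexes, 0 in males, 0 in females and 0 for the interaction of dose and sex, with adjusted p = 1 for every member in every contrast by limma. The same holds for the array as a whole, where 0% of the probes were called in each contrast, and 144 probes over both sexes, 74 in males, 160 in females and 51 for the interaction had an unadjusted p under 0.05. The smallest unadjusted limma p of a member was 0.242, for Hba-a1 in females. These p-values rest on the spread between pools at 20 mg, which the single 2 mg pools are assumed to share. With 2 residual degrees of freedom, limma draws the spread of each gene toward that of tested probes of like signal (median prior SD 1.32). An SE is therefore not the spread of the gene's own pools. At 20 mg the SD of the Ahsp pools was 0.33 in females, with an unmeasured value on the dim array, and 0.31 in males. The SE of the Ahsp dose difference was 2.14 in each sex. For Hba-a1 the SDs were 1.79 and 1.28 and the SE 1.06. An SD of pools and an SE of a difference are unlike measures. With SEs between 0.63 and 1.52 over both sexes, a difference of 2-fold would not have been detectable in these genes. Over both sexes 6 of the 7 members tested had a lower mean at 20 mg, where 58.6% of all probes tested did, with a median difference of -0.34 against -0.15.

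With slide as a block, in a model of sex and dose, the dose difference over both sexes was 1.00 for Hba-a1 against -0.34 without the block, -0.29 against 0.12 for Alas2 and 0.09 against -0.45 for Slc4a1. It was -0.38 for Hbb-b1, -0.46 for Hbb-bh1, -0.22 for Hbb-y and -0.73 for Ahsp, the same direction as without the block, and 0 members were called by limma. In this model the sex term is read partly from slide 2, which holds only 20 mg arrays, and that term enters the dose difference. For Hba-a1 the slide 2 arrays stood at 13.28 (the dim female array) and 17.19 (male), so the value of 1.00 is not a within-slide comparison of doses. Within slide 1, where female 20 mg replicate 1 stands against the female 2 mg array after normalization of these 3 arrays alone, the difference was -0.01 for Hba-a1, -0.62 for Hbb-b1, 0.12 for Hbb-bh1, 0.03 for Hbb-y, -0.47 for Alas2, -0.51 for Slc4a1 and -0.71 for Ahsp, with no test. No other slide holds both doses.

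By the rule of the study's methods, which keeps probes of high variance over the arrays and then asks for a 2.5-fold difference of means with no test, 1 of the 8 members (Hba-a1) passed the variance filter and 0 reached 2.5-fold in either sex. Of the 15247 probes kept, 7.92% were lower and 5.18% higher at 20 mg in males, and 37.6% were lower and 31.6% higher in females, with the dim array of female 20 mg replicate 2 in the female mean. The nearest members were Hba-a1 in females, at 2.42-fold lower, and Hbb-bh1 in males, at 2.39-fold lower, which rests on male 20 mg replicate 1, where Hbb-bh1 was not well above background. The count depended on single arrays and on the scale: without female 20 mg replicate 1, Hba-a1 in females was -2.58, and without male 20 mg replicate 2, Hba-a1 in males was 1.40, and each then passed. Leaving out female 20 mg replicate 2 brought in Hbb-bh1 in males (-1.48), with the same unmeasured value. The shares of all probes past 2.5-fold without these arrays were not computed. No member had all 4 arrays at 20 mg below or above both 2 mg arrays, which 8.33% of the probes tested had.

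The wider red cell programme was read from lists of genes named by their function, of which up to 3 genes with the highest mean signal are given with their difference over both sexes. In these lists and those of other blood cells and vessels, 0 genes had an unadjusted limma p under 0.05 over both sexes, in males or in females. Of 8 other enzymes of heme synthesis, all were tested, 0 were called by limma, and 7 were higher and 1 lower in mean at 20 mg over both sexes, with a median difference of 0.33 against -0.15 for all probes tested. On single arrays the list's median difference from the 2 mg array was 0.96 on female 20 mg replicate 2 and 0.65 on male 20 mg replicate 1, both on slide 2, against -0.04 on female replicate 1 and 0.01 on male replicate 2. Alas1, the enzyme that starts heme synthesis in all tissues, differed by 0.28 (SE 0.70), Urod by 0.73 (SE 0.78) and Uros by 0.20 (SE 0.76). Urod and Uros act in the middle of the pathway, and their highest values, 13.66 and 12.62, were both on female 20 mg replicate 2.

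Among 12 erythroid transcription factors, 10 were tested and 0 were called by limma, 3 lower and 7 higher in mean over both sexes, with a median of 0.12. They include Bcl11a, a repressor of embryonic globin genes that is also expressed in neurons, with a difference of 0.08 (SE 0.67), Tal1, with 0.14 (SE 0.79), and Lmo2, with 0.21 (SE 0.82). All of these genes are used outside red cells as well. Of 11 genes of iron and heme transport on the array, all were tested and 0 were called by limma, 7 lower and 4 higher, with a median of -0.15. The ferritin chains, which store iron in most cells, differed by -0.15 for Ftl1 (SE 0.63) and 0.51 for Fth1 (SE 0.63), and Slc25a38, a mitochondrial carrier needed for heme synthesis, by 0.40 (SE 0.78).

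Of 16 genes of the red cell membrane and skeleton on the array, 10 were tested and 0 were called by limma, 4 lower and 6 higher, with a median of 0.15, and 5 were not well above background on any array. Epb4.1, which ties the skeleton to the membrane, differed by -0.15 (SE 0.68), Epb4.9 by 0.11 (SE 0.91) and Ermap, an erythroid membrane protein, by 0.59 (SE 1.13), with a range of 4.51 over the 6 arrays. Of 18 red cell enzymes and genes of late maturation, 15 were tested and 0 were called by limma, 9 lower and 6 higher, with a median of -0.09. Prdx2, a peroxidase abundant in red cells, differed by 0.21 (SE 0.63), Hemgn, a nuclear protein of blood precursors, by 0.68 (SE 0.69) and catalase (Cat) by 1.08 (SE 0.91). Hemgn and Cat were both highest on female 20 mg replicate 2, at 14.56 and 15.13.

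Of 9 other globins on the array, 8 were tested and 0 were called by limma, and all 8 had a lower mean at 20 mg, with a median of -0.42. The list holds close copies that may share signal, so its members are not independent. Outside the red cell, cytoglobin (Cygb), found in fibroblast-like cells and neurons, differed by -0.45 (SE 0.68) and neuroglobin (Ngb) by -0.81 (SE 1.56), while myoglobin (Mb) was not well above background on any array.

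Genes of other blood cells and of vessels are set beside the members array by array. The members tested had median differences from the 2 mg array of -0.46 and -0.20 on the female and 0.30 and -0.36 on the male 20 mg arrays. The platelet list, with 5 of 10 genes tested, stood at -0.34 and 1.37 in females and 0.08 and 0.45 in males. The list of neutrophils and other white blood cells, with 9 of 12 tested, stood at -0.98 and -0.59 in females and -0.35 and 1.03 in males. The list of the blood vessel wall, with 12 of 12 tested, stood at 0.12 and -1.91 in females and 0.47 and -0.27 in males. On female 20 mg replicate 2 only 3 of the 8 members, 1 of 10 platelet genes, 1 of 12 white cell genes and 4 of 12 vessel genes were well above background, so the medians of that array rest mostly on values that are not measured levels. None of these genes was called by limma. Elane, the neutrophil elastase, was highest, at 13.53, on male 20 mg replicate 2, as was the vessel gene Kdr, at 14.28. Of the members measured there, Hba-a1, Hbb-b1, Hbb-bh1 and Ahsp were below the male 2 mg array, and Alas2 and Slc4a1 were above it. In the platelet list Pf4, a platelet chemokine, had a difference over both sexes of 0.39 (SE 0.85) and Gp1bb of 0.92 (SE 1.41). In the white cell list the difference was -0.70 (SE 1.16) for Elane, -1.23 (SE 1.28) for Cd3e, a T cell receptor chain, and 0.74 (SE 1.20) for S100a9. Among vessel genes, Cldn5, a tight junction protein, differed by -0.04 (SE 0.76), Kdr by -0.76 (SE 0.92) and Esam by 0.38 (SE 0.93). How much blood each pool held was not tested.

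**Figure D4:**
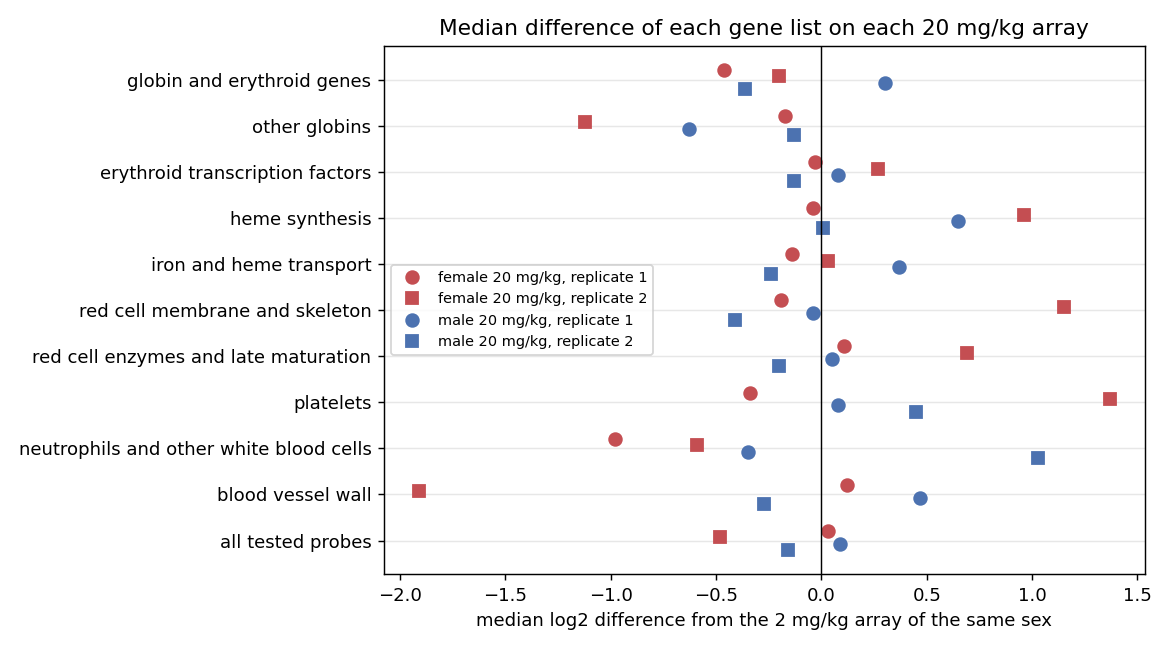
Median log2 difference from the 2 mg/kg array of the same sex, for each list of genes (rows) on each 20 mg/kg array (points), over the genes tested. The medians of female 20 mg replicate 2 spread widest, from -1.91 for the blood vessel wall to 1.37 for platelets, and rest mostly on genes not well above background there, while the medians of the 7 globin and erythroid genes tested lie between -0.46 and 0.30.

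To summarize the readable members, the 5 members well above background on at least 5 arrays (Hba-a1, Hbb-b1, Alas2, Slc4a1 and Ahsp) were centred and averaged, without scaling. This mean was 0.40 on the female 2 mg array, -0.05 and -0.67 on the female 20 mg arrays, 0.02 on the male 2 mg array, and 0.51 and -0.21 on the male 20 mg arrays. The 2 arrays of slide 2, which were scanned on the same day, were its lowest and its highest. Hba-a1 weighs most in it, with an SD of 1.27 over the arrays against 0.33 to 0.68 for the others, so it is not a pattern shared by all 5. On female 20 mg replicate 2, Hba-a1 lay -2.54, Hbb-b1 -0.69 and Alas2 0.08 from the female 2 mg array, and Slc4a1 and Ahsp were not measured. Among 36805 probes with enough spread, the genes most like this mean over the 6 arrays were Ddi2 (Pearson r = 0.995), Pawr (0.990), Lyn (0.988), Bglap2 (0.988) and Tmpo (0.988), and 201 probes (0.546%) reached 0.95. With 6 arrays of 3 slides and so many probes, these values are a description, and no erythroid gene was among the 5.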

How the data were processed

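RNA of pooled P1 cerebellum was measured on 6 single-colour arrays, put into 4 groups by labelled sex and FA dose. Per the labels and the study's methods, the authors scanned the arrays with Agilent Feature Extraction 10.7.3.1 and deposited for each spot a processed intensity, with background subtracted, and flags for spots well above background. The authors' deposited value table holds log2 values that were quantile normalized and given a floor in BRB-ArrayTools. It served as an alternative.

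Here outlier spots were left out, spots of a probe averaged, and the log2 intensities quantile normalized over 6 arrays and raised to 10 (linear) where lower. Each gene was read from its brightest probe. limma 3.58.1 in R 4.3.3 was fitted with 4 groups, a trend and 2 residual degrees of freedom, on probes well above background on at least 2 arrays, at an adjusted p of 0.05. The script was tested on simulated data. In the fold rule, a probe was kept where its variance exceeded the median variance (chi-square p at or under 0.05) with at most 50% of values missing. Named from each other list were the 3 genes with the highest mean, apart from other globins, of which the adult ones were also described, chosen after their values were seen. A gene that this rule names in the platelet list is not reported here. By likeness, the 5 genes with the highest Pearson r were named, among probes with an SD at least 0.5 times that of the averaged members. The members and lists were chosen with earlier results of these data known. The alternatives tried were scaling to the 75th percentile of each array, the floor before normalization, normexp with an offset of 50, the authors' table, other filters on dim probes, the mean over probes, additive models, slide or replicate number as a block, slide 1 alone, no variance filter, and leaving out single arrays. The study's methods give fewer dams than pups at 20 mg, so some pools share litters, which ones not being stated. The pools are therefore not fully independent, and p-values reflect only the spread between them, which limma partly shares over the probes. Precision is limited by having 6 arrays. Promoters and current symbols came from RefSeq tables of GRCm38.p6, in which the accession of Ahsp was not matched. No annotation of mm9 was used, so exons of the probes are not given.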

Additional observations from a re-analysis of the deposited data

Results flagged for a closer look

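For 2 genes, a single array at 20 mg stood apart from the other 3 by Dixon's criterion, which chance meets in about 1 of 20 groups. The dim array is among the 4, and the share of all probes meeting the criterion here was not computed. The count is therefore not read as a trait of these genes. For Hbb-b1 the gap between male 20 mg replicate 1 (14.90) and the nearest other array was 0.925 of the range of the 4 arrays. For Slc4a1 the gap below the others, at female 20 mg replicate 2 (5.73, not a measured level), was 0.96 of the range. Both groups of 4 combine the sexes.

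For 3 genes both female arrays at 20 mg moved one way from their 2 mg array and both male arrays the other way. The share of all probes that do so was not computed, so the count is not read as a trait of these genes. The second Hbb-y probe did not show it, with 0.35 and -1.63 in females and 1.00 and -0.82 in males. The female minus male dose difference was 1.42 for Hbb-bh1, 1.28 for Hbb-y and -1.55 for Slc4a1 (log2). The limma interaction gave adjusted p = 1 for each, and each rests in part on arrays where the gene was not well above background.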

How the results depend on the processing

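No member was called by limma under any alternative in which it was tested, with a smallest adjusted p of 0.386. The 7 members tested gave 275 recomputed dose differences, of which 246 kept their direction and 29 turned. Many of these could not turn, so the count is no measure of stability. The replicate block, the additive model on all arrays and the filters on dim probes leave each difference as it was. So does the mean over probes for a gene with 1 probe, and leaving out an array of one sex reaches the other sex only through normalization. Over both sexes, slide as a block turned Hba-a1 to 1.00, Alas2 to -0.29 and Slc4a1 to 0.09, and slide 1 alone, a value with no test, turned Hbb-bh1 to 0.12, Hbb-y to 0.03 and Alas2 to -0.47. In an additive model without the female 2 mg array Hba-a1 was 0.61 and Slc4a1 0.32, and without the male 2 mg array Hbb-bh1 was 0.16, Hbb-y 0.40 and Alas2 -0.19. Normexp turned Hbb-y to 0.06. Leaving out single 20 mg arrays gave Hba-a1 -0.97 to 0.27, Hbb-y -0.59 to 0.11 and Alas2 -0.05 to 0.30. In males, the 75th percentile shift turned Hba-a1 to -0.07, Hbb-b1 was 0.04 under normexp and 0.05 in the authors' table, and single arrays left out gave -0.32 to 1.40 for Hba-a1 and -0.38 to 0.33 for Hbb-b1. In females, Hbb-bh1 was -0.85 with the floor first, -0.51 under normexp and -0.61 in the authors' table, Hbb-y -0.73 with the floor first, -0.54 in the authors' table and -0.12 as a mean of probes, and single arrays left out gave Alas2 -0.46 to 0.08. With slide as a block, the dim female array enters the dose difference through the sex term. The cause of these turns was otherwise not tested, and those of Hbb-bh1, Hbb-y and Slc4a1 rest in part on arrays that did not measure the gene. The count past 2.5-fold was 0 in each sex. With the floor first it was 1 in males (Hbb-bh1) and 2 in females (Slc4a1 and Ahsp). In the authors' table it was 1 in males (Hbb-bh1) and 1 in females (Slc4a1), and with single arrays left out 0 to 1 in each sex. The shares of all probes past 2.5-fold under these alternatives were not computed, so the counts are not read as results about the members. The adult minus embryonic difference, -0.19, ranged from -0.53 to 0.30 under other scalings and from -0.64 to 0.37 with single arrays left out, and it rests in part on values that are not measured levels.

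The 20 mg arrays of the sexes share replicate numbers, and the deviations of same-numbered arrays correlated at 0.087 over 37197 probes (one of these arrays is the dim one), and the labels do not say what the numbers share. The replicate block is balanced within the 20 mg arrays and so cannot change a dose difference (-0.34 for Hba-a1 and -0.55 for Ahsp over both sexes). With the block 0 members were called by limma, and the calls over all probes went from 0 to 13.

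With 1 pool per sex at 2 mg, the spread of the control was not measured. On female 20 mg replicate 2 most members with low signal were under the measured range, and slide cannot be separated from dose except through slide 1.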
